A study of Mus musculus with 6 samples.

Results

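The 8 genes described here, Pi16, Dpp4, Cd55, Sema3c, Pdgfra, Cd34, Dlk1 and Ly6a, are used in mice to recognise the interstitial progenitors of adipose tissue and the wider progenitor pool around them. They were chosen from the same comparison of groups that is described here, because Pi16 was higher after sleep restriction while most genes of the extracellular matrix were lower. The differences of these genes between the groups are therefore given as a description, and no p-value is given for them. Whether the fit over all probe sets called one of them is stated only to show where it stood in that fit, and nothing is read from it. Every probe set annotated to exactly 1 of the 8 symbols was taken. This gave 11 probe sets for 7 genes, of 22690 probe sets on the array, and 9 of them, for 6 genes, were bright enough to enter the fit over 14707 probe sets. Ly6a, which encodes the GPI-anchored surface protein Sca-1, had no probe set under its symbol in the annotation used and was not analysed here. The paper lists it among the genes that were lower after sleep restriction.

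Epididymal white adipose tissue (WAT) was profiled in 2 groups of C57BL/6 wild-type male mice aged between 9 and 11 weeks, with 3 arrays each. TSR mice underwent timed sleep restriction, in which sleep was prevented for 6 h per day from ZT0 to ZT6 on 5 days. Control mice were left to sleep. Both groups were kept in 12 h light and 12 h dark, and tissue was taken at ZT18, in the dark phase (ZT0 is lights on). The comparison asked how TSR altered the WAT transcriptome at that time. Neither the labels nor the methods say whether an array holds RNA of 1 animal or of a pool, so p-values reflect array-to-array variation alone, which may be technical. Values are MAS5 signals, linear intensities that the array software summarises per probe set. In whole tissue, fewer cells of a type and less RNA per cell cannot be told apart.

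White adipose tissue grows by enlargement of adipocytes and by differentiation of new ones from fibroblast-like progenitors. In mice, interstitial progenitors that carry Dpp4 and Pi16 lie in the connective tissue sheets around and between fat lobules and can give rise to committed preadipocytes, which are marked by Icam1 and Pparg. Pdgfra, Cd34 and Ly6a are shared by most adipose progenitors and fibroblasts, while Dlk1, also known as Pref-1, is an inhibitor of adipocyte differentiation.

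The 6 arrays had medians of 126.4 to 140.5 signal units and trimmed means of about 500.2, and log2 signals correlated more strongly within groups (r = 0.967 to 0.971, across probe sets) than between them (0.953 to 0.957). The adipocyte markers Car3, a carbonic anhydrase (16161 ± 2176 signal units in TSR and 22864 ± 3397 in control WAT, SD, n = 3 each), and Fabp4, a fatty acid carrier (16824 ± 1405 in TSR and 22601 ± 2006 in control WAT), were among the brightest transcripts. 2 features moved with the groups over the whole array. TSR WAT had the higher mean for 26 of 27 hepatocyte markers that were measured, the summed signal of the list was 26833 to 30449 on TSR and 15719 to 19497 on control arrays, and no marker was below the 25th percentile of every array. Only Cyp2e1, the brightest of the list, was lower on average in TSR WAT. It averaged 12455 ± 1573 in TSR and 16621 ± 1969 in control WAT (SD, n = 3 each) and made up most of the control sum. The ratio of the sums is therefore smaller than it would be without Cyp2e1. For beta-actin, the log2 signal of the 5′ minus that of the 3′ probe set was -0.67 ± 0.0013 in TSR and -1.22 ± 0.012 in control samples (SD, n = 3 each). For Gapdh it was 0.13 ± 0.054 in TSR and -0.52 ± 0.066 in control samples. The part of these features in the results below was not tested.

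Pi16, peptidase inhibitor 16, is a secreted or membrane-anchored member of the CAP domain family. Probe set 1453839_a_at gave 257, 245 and 302 signal units on the TSR arrays, against 49.98, 59.9 and 64.4 on the control arrays. All TSR arrays were above all control arrays, and the lowest TSR value was several times the highest control value. The means were 268 ± 30.3 in TSR and 58.1 ± 7.39 in control WAT (SD, n = 3 each), a ratio of 4.61 and a log2 difference of 2.21 ± 0.14 (SE). This placed the probe set at rank 54 of the 14707 when ordered from the highest difference down. Leaving out any 1 array kept the ratio between 4.31 and 4.88. The other probe set of the gene, 1422026_at, was below the 25th percentile of the signal on every array, with 4.43, 3.91 and 5.26 in TSR and 5.37, 2.12 and 5.39 in control WAT. At that signal no difference was measurable and no ratio is given, so that the Pi16 difference rests on 1 probe set.

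**Figure D1:**
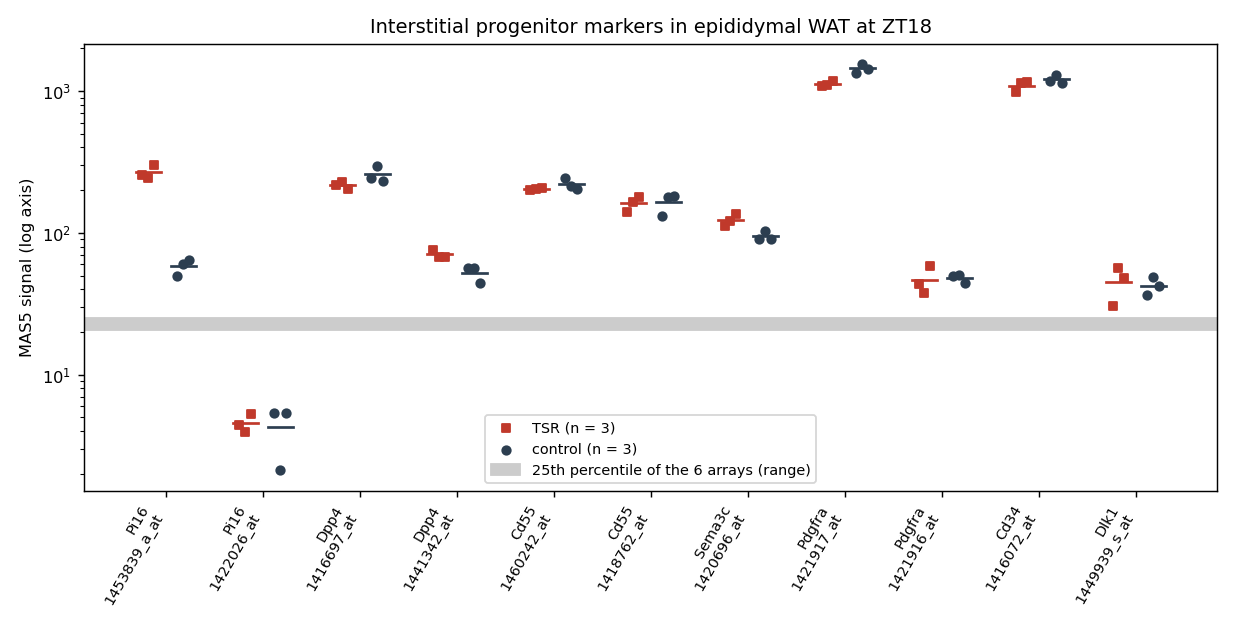
MAS5 signal (log axis) of the 11 probe sets on the 3 TSR arrays (squares) and the 3 control arrays (circles), with group means as lines and the range of the arrays' 25th percentiles, 20.8 to 25.2, as a grey band. Pi16 1453839_a_at shows the widest gap, and Pi16 1422026_at lies under the band on all arrays. Pdgfra 1421917_at, Sema3c and, in opposite directions, the 2 Dpp4 probe sets stand apart by less.

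Upstream sequences are shown for the 3 genes with a probe set that the fit called different, Pi16, Sema3c and Pdgfra. They are the 250 bases before the start of the gene in RefSeq on GRCm38.p6, read 5′ to 3′ on the strand of the gene. A promoter was listed for 7 of the 8 genes. Capitals mark matches on either strand to 1 of 6 motifs: the E-box CACGTG, the RORE core AGGTCA, the D-box TTATGTAA, the glucocorticoid response half-site AGAACA, the TATA box TATAAA and the GC box GGGCGG. The first 3 are bound by clock-related factors.
Pi16, chr17:29318632-29318881, plus strand: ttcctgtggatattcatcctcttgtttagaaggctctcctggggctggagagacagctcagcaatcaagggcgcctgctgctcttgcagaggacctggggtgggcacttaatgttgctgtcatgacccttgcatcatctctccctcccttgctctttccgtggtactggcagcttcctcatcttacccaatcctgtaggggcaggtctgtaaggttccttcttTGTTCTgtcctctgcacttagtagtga
Sema3c, chr5:17574566-17574815, plus strand: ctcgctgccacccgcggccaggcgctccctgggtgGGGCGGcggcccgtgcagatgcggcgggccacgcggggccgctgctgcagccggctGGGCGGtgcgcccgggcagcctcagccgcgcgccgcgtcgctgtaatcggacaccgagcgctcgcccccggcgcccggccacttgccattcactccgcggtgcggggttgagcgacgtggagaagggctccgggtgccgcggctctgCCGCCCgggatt
Pdgfra, chr5:75152001-75152250, plus strand: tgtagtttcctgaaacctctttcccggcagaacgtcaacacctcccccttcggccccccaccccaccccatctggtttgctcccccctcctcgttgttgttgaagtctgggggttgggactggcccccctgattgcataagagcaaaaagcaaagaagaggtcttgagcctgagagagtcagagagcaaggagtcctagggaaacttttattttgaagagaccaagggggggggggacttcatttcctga
The Pi16 window held 1 match, TGTTCT, the reverse complement of the half-site, 27 bases before the start. The half-site occurred in 16.1% of 32851 mouse promoters of the same length. The Sema3c window held 3 GC boxes (32.7% of promoters held at least 1), with 78.4% G and C bases and 39 CpG dinucleotides, against 52.4% and 2 CpG for Pi16 and 54.4% and 4 CpG for Pdgfra. The Pdgfra window held none of the 6 motifs. None of the 7 windows held an E-box, a RORE core or a D-box, which occurred in 6.02%, 14% and 0.819% of all promoters. These matches describe letters in the window and are not evidence of binding.

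Dpp4 is a membrane peptidase that removes N-terminal dipeptides from peptide hormones and chemokines, and it gives the interstitial progenitors their other name. Its brighter probe set, 1416697_at, gave 218, 229 and 204 signal units in TSR WAT, against 246, 298 and 234 in control WAT. The groups did not overlap, with TSR lower, and the log2 difference was -0.25 ± 0.11 (SE). The dimmer probe set, 1441342_at, gave 76.2, 67.7 and 67.6 in TSR WAT, against 56.5, 56.7 and 44.2 in control WAT. Here TSR was higher without overlap, by 0.43 ± 0.17 (SE) on the log2 scale. The 2 probe sets of Dpp4 thus differed in sign, neither was called by the fit, and no direction is given for the gene.

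Cd55, decay-accelerating factor, protects cells from complement by dissociating C3 convertases. Probe set 1460242_at gave 200, 205 and 206 signal units in TSR WAT, against 245, 214 and 204 in control WAT, and 1418762_at gave 141, 165 and 179 in TSR WAT, against 131, 179 and 182 in control WAT. The groups overlapped for both, and the log2 differences were -0.12 ± 0.09 and -0.01 ± 0.15 (SE). A further probe set that is annotated to both Cd55b and Cd55 was left out because it names 2 genes.

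Sema3c encodes a secreted class 3 semaphorin, a guidance cue that signals through neuropilins and plexins. Its probe set, 1420696_at, gave 112, 121 and 135 signal units in TSR WAT, against 90.1, 104 and 91.1 in control WAT. TSR arrays were higher without overlap, and the means were 123 ± 11.6 in TSR and 95.0 ± 7.67 in control WAT (SD, n = 3 each), a ratio of 1.29 and a log2 difference of 0.37 ± 0.13 (SE). The gap between the lowest TSR and the highest control array was small beside the spread of each group. The call was kept in 3 of 13 alternative settings and was lost without TSR array 1, 2 or 3 and without control array 1 or 3, while the sign was kept in all 13.

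Pdgfra is the alpha receptor for platelet-derived growth factors and marks nearly all adipose progenitors. Probe set 1421917_at gave 1084, 1109 and 1172 signal units in TSR WAT, against 1350, 1545 and 1436 in control WAT. Every TSR array was below every control array. The means were 1121 ± 45.4 in TSR and 1443 ± 98.0 in control WAT (SD, n = 3 each), a ratio of 0.777 and a log2 difference of -0.36 ± 0.06 (SE), and this call was kept in all 14 alternative settings. The dim probe set 1421916_at gave 43.6, 37.8 and 58.5 in TSR WAT, against 49.9, 50.2 and 44.0 in control WAT. These values overlapped, with a log2 difference of -0.06 ± 0.21 (SE).

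Cd34, a sialomucin of progenitors and of vascular endothelium, gave 983, 1144 and 1150 signal units in TSR WAT, against 1178, 1296 and 1148 in control WAT (1416072_at). The groups overlapped by a narrow margin, and the log2 difference was -0.15 ± 0.07 (SE). Dlk1 (1449939_s_at) gave 30.4, 56.4 and 48.4 in TSR WAT, against 36.7, 48.9 and 41.9 in control WAT. Its control values lay within the TSR range, and it fell just under the lowest mean log2 signal that was tested, 5.45, with a mean of 5.42.

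Of the 9 tested probe sets, 2 were called higher (Pi16 and Sema3c), 1 lower (Pdgfra) and 6 were not called at a limma adjusted p of 0.05. Over all tested probe sets 25.6% were called higher and 21.0% lower. The groups did not overlap in 5 of the 9, with TSR higher in 3 and lower in 2, where over all probe sets 31.4% were higher and 25.2% lower without overlap. The median difference was -0.06 on the log2 scale, beside 0.04 over all tested probe sets, and 6 of the 9 differences were below 0. The differences ran in both directions, and that of Pi16 was the largest in size of the 9. Within each array, the log2 ratio of Pi16 to the brighter probe set of each other tested gene was greater in TSR by 1.84 (to Sema3c) to 2.57 (to Pdgfra). These ratios restate the Pi16 difference, for which the markers were chosen, and are no further result.

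**Figure D2:**
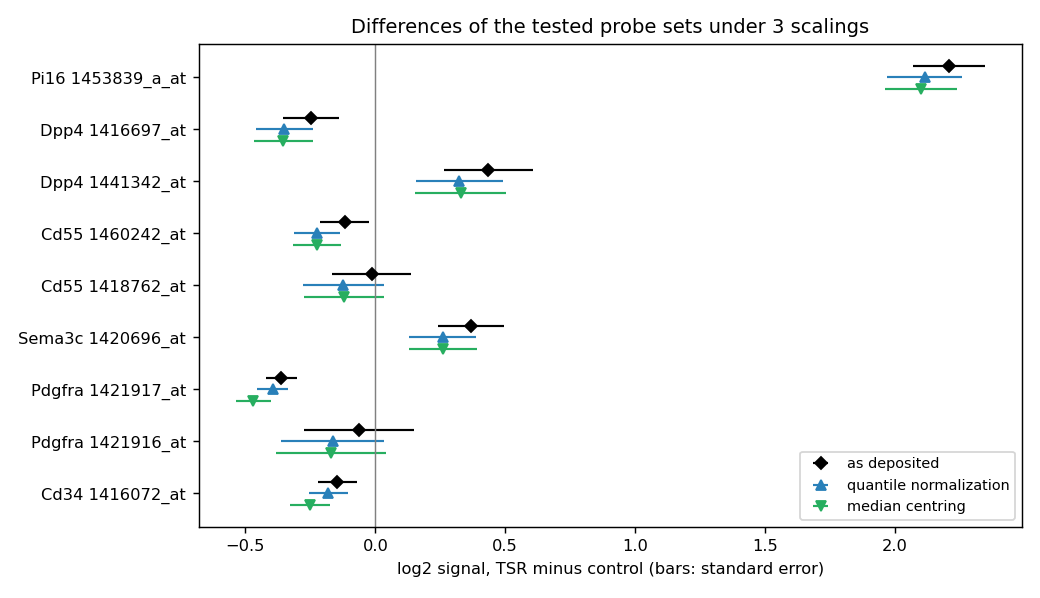
Log2 difference, TSR minus control, of the 9 tested probe sets with its standard error, from the deposited signals (diamonds) and after quantile normalization (upward triangles) or median centring (downward triangles). Pi16 lies at 2.21, 2.11 and 2.10, the dim Dpp4 probe set and Sema3c stay to the right of 0 under all 3 scalings, and the other 6 stay to the left.

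The 5 genes with the array profile nearest to that of Pi16 were Hamp, Acta1, Elovl6, Sbk1 and Cfi. Likeness was measured as Euclidean distance over the 6 arrays of log2 signal minus the control mean, and the distances were 0.218 for Hamp to 0.502 for Cfi. Hamp encodes the liver-derived iron hormone hepcidin and gave 95.3, 94.1 and 117 signal units in TSR WAT, against 21.8, 21.7 and 25.1 in control WAT. Its highest array in each group was array 3, which was also the highest for Pi16. Acta1, skeletal muscle actin, averaged 1871 ± 38.4 in TSR and 399 ± 10.6 in control WAT, and Elovl6, a fatty acid elongase, averaged 1742 ± 24.1 in TSR and 403 ± 8.70 in control WAT (SD, n = 3 each). Sbk1, a kinase, averaged 371 ± 20.2 in TSR and 87.2 ± 4.38 in control WAT, and Cfi, complement factor I, averaged 120 ± 3.23 in TSR and 29.5 ± 4.32 in control WAT. The likeness rests mainly on the size of the group difference, which these genes share by the way they were chosen. The control means of Hamp, 22.9, and Cfi were under 43.8 signal units, the limit for testing. Both entered the fit only through their TSR values.

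**Figure D3:**
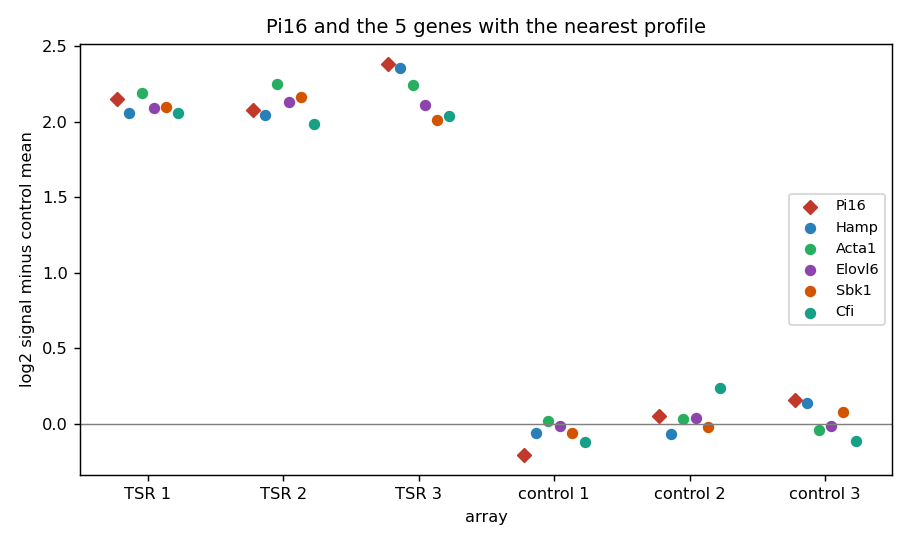
Log2 signal minus the control mean on each array for Pi16 (diamonds) and for Hamp, Acta1, Elovl6, Sbk1 and Cfi (circles). All TSR points lie close to 2 and all control points close to 0, with Pi16 and Hamp both highest on TSR array 3.

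Further markers of interstitial progenitors did not share the Pi16 difference. Counts for this and the following lists use the brightest tested probe set of a gene, and over all 8619 tested genes 24.0% were higher and 23.0% lower in TSR, with a median log2 difference of 0.01. Of 17 tested further markers, 2 rose, 7 fell and 8 did not pass the test, with a median of -0.15. Fn1 and Mfap5, which fell, and Tnxb, which did not pass, are also in the fibrillar matrix list. Matrix genes that fell were part of the reason for choosing the 8 markers, so these calls are no further result. Bmp7, a bone morphogenetic protein, averaged 42.9 ± 26.5 signal units in TSR and 115 ± 27.1 in control WAT (log2 difference -1.69 ± 0.52 SE, limma adjusted p = 0.0258). Its TSR arrays gave 13.1, 63.8 and 51.9, and without TSR array 1, which lay under the 25th percentile of that array, the difference was -0.98. The Bmp7 call was kept in 8 of 13 alternative settings. It was lost without control array 2 or 3, without the filter, without an intensity trend and with the test that the methods name, on linear signals. The TSR mean of Bmp7 was under the limit for testing, 43.8 signal units. Bmp7 thus entered the fit only through its control values and had to be lower. Aldh1a3, a retinaldehyde dehydrogenase, averaged 127 ± 38.1 in TSR and 265 ± 38.4 in control WAT (-1.09 ± 0.20 SE, adjusted p = 0.00201). Fn1, fibronectin, and Timp3, a metalloproteinase inhibitor, fell by 0.52 ± 0.07 and 0.41 ± 0.05 on the log2 scale (SE). The 2 genes that rose were Gfpt2, of the hexosamine pathway, by 0.39 ± 0.13, and Ackr3, a scavenging chemokine receptor, by 0.25 ± 0.06 (SE). Neither passed after median centring of the arrays, and Gfpt2 also failed without TSR array 1 or 3 or control array 2 or 3.

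The neighbouring progenitor states were also mixed. Of 18 tested markers of committed preadipocytes, 5 rose, 10 fell and 3 did not pass, with a median of -0.23, but after quantile normalization 8 rose and 6 fell, so that the balance depends on the scaling. The adhesion molecules Vcam1 and Icam1 fell by 1.53 ± 0.11 and 0.85 ± 0.09 on the log2 scale (SE), with Icam1 at 153 ± 11.7 signal units in TSR and 276 ± 14.6 in control WAT. Fabp4, which is also abundant in adipocytes, fell by 0.43 ± 0.08 as deposited and was not called after quantile normalization, and Zfp423, a zinc-finger factor of preadipocyte commitment, rose by 0.80 ± 0.14 (SE). Of 10 tested markers of F3-positive progenitors, which can restrain adipogenesis in mice, 1 rose, 4 fell and 5 did not pass. F3 itself, tissue factor, averaged 1297 ± 83.3 in TSR and 975 ± 86.1 in control WAT (0.41 ± 0.07 SE, limma adjusted p = 0.0018). Gas6, the ligand of the TAM receptors, averaged 2531 ± 95.4 in TSR and 5206 ± 80.4 in control WAT, and Gdf10, a TGF-beta family ligand, averaged 893 ± 52.3 in TSR and 1690 ± 83.9 in control WAT. Vit, which encodes a matrix protein, fell by 0.43 ± 0.10 (SE). Abca1, a cholesterol exporter and the brightest gene of this list, fell by 0.22 ± 0.06 (SE), a call that was lost after quantile normalization.

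General fibroblast and matrix transcripts were mostly lower. Of 18 tested fibroblast markers, 16 fell, 1 rose and 1 did not pass, with a median of -0.49, and under the alternative settings between 13 and 16 fell. Lum, the collagen-binding proteoglycan lumican, averaged 1067 ± 64.7 signal units in TSR and 2097 ± 69.2 in control WAT. Gsn, the actin-severing gelsolin and the brightest of the list, averaged 17671 ± 2168 in TSR and 23713 ± 2439 in control WAT, and was not called after quantile normalization. S100a4 fell by 0.79 ± 0.05, the chemokine Cxcl12 by 0.63 ± 0.07 and Pdgfrb by 0.60 ± 0.06 on the log2 scale (SE). The marker that rose was Itgb1, the beta-1 integrin (0.50 ± 0.05 SE), and Tcf21 did not pass. Of 29 tested genes of the fibrillar matrix, 5 rose, 17 fell and 7 did not pass, with a median of -0.35. Postn, periostin, averaged 1116 ± 122 in TSR and 3089 ± 157 in control WAT (-1.47 ± 0.08 SE). Against this direction, Thbs2, a thrombospondin, averaged 496 ± 49.7 in TSR and 137 ± 8.56 in control WAT (1.86 ± 0.09 SE), and the collagen gene Col5a3 rose by 1.15 ± 0.05 (SE). The Pdgfra difference of -0.36 lay near the medians of these lists, and those of Pi16 and Sema3c lay above them. Lum and Dcn, which also fell, are in both lists. Pi16 lay above every gene of both lists in its log2 difference, which restates the reason for choosing these markers and is no further result.

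**Figure D4:**
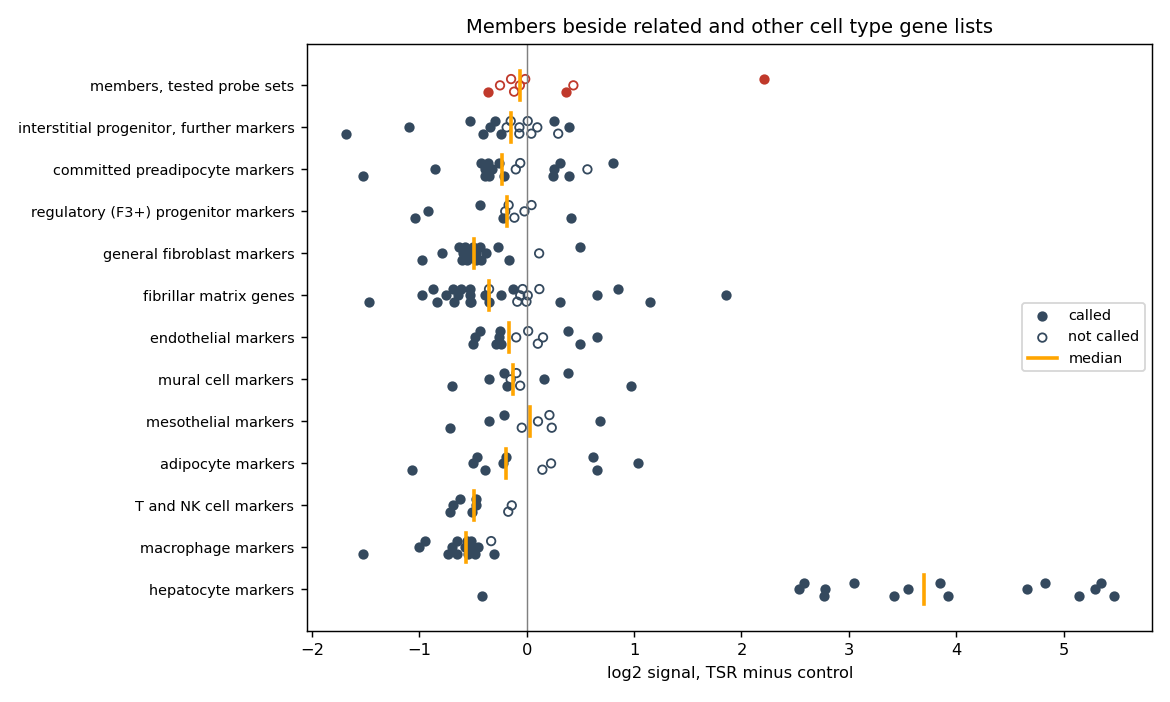
Log2 difference, TSR minus control, of the tested probe sets of the progenitor markers (top row) and of the genes in 12 lists (brightest probe set per gene), with filled points for calls at an adjusted p of 0.05 and open points for no call. Orange lines are medians: -0.06 in the top row, -0.49 for general fibroblast markers and -0.35 for the fibrillar matrix. 9 of the 16 hepatocyte markers entered only through their TSR signal.

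The partners and relatives of each marker were examined in turn. Among PDGF ligands and receptors, Pdgfrb fell, with 1424 ± 93.6 signal units in TSR and 2158 ± 99.2 in control WAT, and the ligand gene Pdgfb rose by 0.44 ± 0.07 (SE) on the log2 scale. Pdgfa and Pdgfc did not pass, with log2 differences of 0.04 ± 0.11 and 0.02 ± 0.06 (SE). Of 7 tested class 3 semaphorins and receptors, Nrp1, a neuropilin, averaged 2716 ± 88.1 in TSR and 4021 ± 140 in control WAT (limma adjusted p = 2.45e-05). Plxnd1, a plexin, averaged 895 ± 58.3 in TSR and 584 ± 21.3 in control WAT (limma adjusted p = 7.44e-05), and the other 5 genes did not pass. Receptor genes that take part in class 3 semaphorin signalling thus differed in opposite directions.

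Among 5 tested complement regulators, which share the pathway of Cd55, 2 rose and 2 fell. Cfi rose by 2.03 ± 0.17 and Cd59a, which blocks the membrane attack complex, by 0.14 ± 0.05 on the log2 scale (SE). The control mean of Cfi, 29.5 signal units, was under the limit for testing of 43.8. Cfi thus entered the fit only through its TSR values and had to be higher. The Cd59a call was kept in 4 of 14 alternatives and was lost without TSR array 2 or 3 and without any 1 control array. Serping1, the C1 inhibitor, and Cr1l, the rodent regulator Crry, fell by 0.38 ± 0.05 and 0.19 ± 0.04 (SE). Among 5 tested relatives of Dpp4, Fap, its nearest homologue and a marker of activated fibroblasts, averaged 354 ± 8.40 in TSR and 527 ± 31.7 in control WAT, and Dpp7 fell by 0.32 ± 0.07. Prep, prolyl oligopeptidase, rose by 0.51 ± 0.06 (SE), and Dpp8 and Dpp3 did not pass.

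Of the Cd34-related sialomucins and their ligand genes, 5 were tested. Podxl fell by 0.41 ± 0.05 and Selp, P-selectin, by 0.62 ± 0.11, and the endothelial sialomucin Emcn rose by 0.38 ± 0.06 on the log2 scale (SE). Of 11 tested Notch ligands and receptors, relatives of Dlk1, Jag1 and Dll4 rose, Dll1 and Notch3 fell and 7 did not pass. For Notch3 the groups overlapped, and the call was lost in 7 of 14 alternatives, among them those without TSR array 1 or 2 or control array 1 or 3. Jag1 averaged 327 ± 13.1 in TSR and 175 ± 10.1 in control WAT (0.90 ± 0.08 SE). Dll4 rose by 0.57 ± 0.15 (SE), a call lost with the test that the methods name, on linear signals. Of 2 tested CAP domain relatives of Pi16, Glipr1 averaged 73.3 ± 7.67 in TSR and 128 ± 24.1 in control WAT (limma adjusted p = 0.00479). This call was also lost with the test that the methods name. Glipr2 did not pass, with a log2 difference of 0.01 ± 0.16 (SE). Crisp2 and Crisp3 were below the 25th percentile on all arrays. Neither of 2 tested members of the Ly6 family, Lynx1 and Ly6h, passed the test, and Ly6a was not among them.

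Other cell types in the tissue were read from their markers. Of 14 tested endothelial markers, which bear on Cd34, 3 rose, 7 fell and 4 did not pass. Tek fell by 0.50 ± 0.05, Vwf by 0.48 ± 0.06 and Ptprb, the brightest, by 0.25 ± 0.05 on the log2 scale, and Tie1 rose by 0.65 ± 0.12 and Pecam1 by 0.49 ± 0.07 (SE). Of 16 tested macrophage markers, 15 fell, 0 rose and 1 did not pass, with a median of -0.56. Mrc1, the mannose receptor, averaged 1270 ± 42.9 in TSR and 2449 ± 21.2 in control WAT, and Lyz2, lysozyme, the brightest, averaged 5624 ± 162 in TSR and 8065 ± 309 in control WAT. Aif1 and Fcgr3 fell by 1.52 ± 0.15 and 0.74 ± 0.05 (SE), and Tyrobp averaged 1134 ± 59.6 in TSR and 2268 ± 78.3 in control WAT. Of 8 tested T and NK cell markers, a source of Dpp4, 6 fell and 2 did not pass, but only 3 fell without TSR array 2, control array 1 or control array 2. Thy1, which fell and was called in all 14 alternatives, is also in the general fibroblast list. Cd2 and Klrd1 fell by 0.71 ± 0.16 and 0.69 ± 0.16 (SE), calls that were kept in every alternative that tested them. Il7r and Nkg7 fell by 0.62 ± 0.18 and 0.51 ± 0.16 (SE), calls that were among those lost without these arrays, and Nkg7 was also not called without TSR array 1 or 3. Zap70, the brightest of the list, did not pass (-0.14 ± 0.23 SE).

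Mural cell markers were divided, with 3 of 10 higher and 4 lower. Cspg4 rose by 0.97 ± 0.09 and Mcam by 0.39 ± 0.06, and Tagln fell by 0.70 ± 0.04 on the log2 scale (SE). Myh11 fell by 0.35 ± 0.10 (SE), a call lost without TSR array 1, which left 2 genes lower, and Rgs5, the brightest, did not pass (-0.10 ± 0.06 SE). Of 8 tested mesothelial markers 1 rose and 3 fell. Msln, mesothelin, rose by 0.68 ± 0.10, and Wt1 fell by 0.72 ± 0.07 and Gpm6a by 0.35 ± 0.07 (SE). Upk3b, the brightest of the list, fell by 0.21 ± 0.06 (SE), a call lost without TSR array 1 or control array 1. Of 11 tested adipocyte markers 3 rose and 6 fell, but 5 rose and 1 fell after quantile normalization and 3 rose and 1 fell with the test that the methods name, on linear signals, so that no direction is given for the list. The 3 that rose were Slc2a4, the insulin-responsive glucose transporter, by 1.04 ± 0.07, Lep, leptin, by 0.65 ± 0.06 and Lipe, hormone-sensitive lipase, by 0.61 ± 0.06 (SE). Pck1, a glyceroneogenic enzyme in adipocytes, fell by 1.07 ± 0.08 (SE), and the Car3 difference of -0.50 ± 0.12 (SE) was not called after quantile normalization.

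Of 16 tested hepatocyte markers, 15 were called higher and 1, Cyp2e1, lower, and Cyp2e1 was not called after quantile normalization. For 9 of the 16 the control mean, 18.9 to 38.1 signal units, was under the limit for testing of 43.8, so that they entered the fit only through their TSR values and had to differ. Of the 7 with a control mean above that limit, 6 were higher and 1 was lower. Serpina1c averaged 3049 ± 185 signal units in TSR and 69.0 ± 8.27 in control WAT, and Ttr averaged 2208 ± 70.2 in TSR and 56.6 ± 5.94 in control WAT (SD, n = 3 each). Bhmt and Fabp1, which are among the 9, averaged 801 ± 17.2 and 887 ± 80.1 in TSR and 20.7 ± 8.17 and 27.5 ± 12.8 in control WAT. Of 6 measured markers of the epididymal epithelium, which borders this fat pad, none was bright enough to be tested, and their summed signal was 96.4 to 119 on TSR and 89.7 to 104 on control arrays. Of these 6, 2 were higher on average in TSR WAT. The paper lists Adam7, a gene of the epididymal list, as higher after TSR. The hepatocyte list sum moved with the groups in the same direction as Pi16, and of the 5 genes nearest to Pi16, Hamp and Cfi are known to be expressed mainly in liver. The part of this in the Pi16 difference was not tested.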

How the data were processed

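Epididymal WAT RNA of 3 TSR and 3 control samples was hybridised by the authors to Affymetrix mouse expression arrays, 1 per sample. The deposited values are linear intensities, MAS5 signals scaled by the authors so that every array has the same trimmed mean. The software version and genome build are not given in the sources used here. The labels describe extraction from frozen tissue with Trizol, whereas the methods name a stabilising solution and a lipid tissue kit. Expression calls were not used here.

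Signals were log2-transformed without further normalization and fitted with limma 3.58.1 in R 4.3.3 (lmFit, eBayes with an intensity trend, two-sided, Benjamini-Hochberg over all tested probe sets, threshold 0.05). Of 22690 probe sets, 64 controls and the lowest 35% of the rest by mean log2 signal were left out. This leaves out dim genes, and MAS5 signals near background are imprecise. GEO's platform annotation gave 20393 probe sets 1 symbol, 691 several and 1606 none. Of those with 1 symbol, 20364 matched a RefSeq gene by Entrez ID and 0 symbols changed. Genes with several probe sets were represented by the brightest in lists, and list counts involve no set test. The genes named were all probe sets of the 8 markers, up to 4 called genes with the largest difference in each of 21 lists, the brightest gene of each cell type list and the 5 nearest profiles to Pi16. Genes named beyond these (the other tested relatives, such as Ackr3, Gfpt2, Tcf21 and Itgb1) were chosen after their values were seen. The members and lists were chosen with earlier results of these data known. The procedure was tested on simulated data. Alternatives were a replicate block, a floor at each array's 25th percentile, dropping the filter or raising it to the lowest 50%, median centring, quantile normalization, a fit without trend, the Student test of the methods on linear signals, the mean over a gene's probe sets and leaving out each array. Promoters are from RefSeq.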

Additional observations from a re-analysis of the deposited data

How the results depend on the processing

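The Pi16 log2 difference stayed between 2.10 and 2.29 in the 13 alternatives that tested it, and the bright Pdgfra probe set between -0.47 and -0.31 in 14. Of the 9 probe sets, 2 were called higher and 1 lower. Only 1 was called higher with the Student test of the methods, quantile normalization, median centring, no filter or the replicate block, since the Sema3c call was lost, and 0 with the lowest 50% left out, where Pi16 and Sema3c fell below the filter. The fit without intensity trend called 3 higher, as the dim Dpp4 probe set passed. Calls for lower were 2 with quantile normalization and with the replicate block and 3 with median centring, as the bright Dpp4 probe set, and with median centring Cd34, were added. Leaving out 1 array gave 1 to 2 calls for higher and 1 for lower.

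Further interstitial markers called higher numbered 2, but 1 with the Student test, quantile normalization or no filter and 0 with median centring; leaving out 1 array gave 1 to 2, with 1 left without TSR array 1 or 3 or control array 2 or 3. Over all probe sets, 3768 were called higher and 3082 lower. Median centring gave 2452 higher and 4363 lower, quantile normalization 3099 and 3380, and leaving out 1 array 3075 to 3551 and 2525 to 2840. The median difference of all tested probe sets was 0.04 as deposited, -0.01 after quantile normalization and -0.07 after median centring, so differences of about 0.1 depend on the scaling. Fibroblast and matrix counts kept their direction in every alternative. Of the remaining list counts, 459 were within 1.5 times and 47 were not; those that turn a balance or rest on 1 array are given with the list.

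Same-numbered TSR and control arrays deviated together with correlations of 0.015, 0.19 and 0.17, and 2 of 3 correlated best with their own number, a hint from the data alone; the labels give no shared origin and 1 pair was near 0, so the numbers were not used as pairs. The replicate block gave 4043 higher and 3391 lower calls. With 3 arrays per group, a difference of the size seen for the dim Pdgfra probe set, -0.06 ± 0.21 (SE), was not detectable, and Dlk1 was not tested because of the filter.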
